A study of Caenorhabditis elegans with 12 samples.

Results

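Where an intron can end at either of a pair of 3′ splice sites (acceptors), the choice sets where the next exon begins. The events described here are the alternative 3′ splice site pairs whose acceptors lie 1, 2, 4 or 5 nt apart. They were taken by that distance alone, measured as the difference in intron length between both forms of an event, from the authors' catalogue of library introns on genome build ce10. This gave 226 of the 3483 alternative 3′ splice site events and of the 5267 events of all kinds in that catalogue. By distance, 53 pairs were 1 nt apart, 48 were 2 nt apart, 47 were 4 nt apart and 78 were 5 nt apart.

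The libraries were RNA-seq of whole L3 larvae of Caenorhabditis elegans, grown for 34 hours from bleached embryos at 20 °C. There were 4 groups of 3 libraries: wild-type N2 with numbers az021 to az023 (N2_az02), strain DG3430 with sacy-1(tn1385) and numbers az024 to az026, a second set of N2 with numbers az041 to az043 (N2_az04) and strain SZ454 with mog-5(az192) and numbers az044 to az046. Each mutant was compared with the N2 set that its title numbers follow on from, and the labels name no other treatment or allele. The question in the series title is whether both helicases act against use of the upstream 3′ splice site, the one closer to the 5′ splice site. Each mutant was 1 strain, and nothing in the labels tells whether libraries of the same group were made from different cultures. The p-values therefore measure the spread between libraries alone, and that spread may be technical. RNA came from whole animals, so fewer cells that use an acceptor and less use of it per cell cannot be told apart. The files held splicing scores and no expression levels, so neither the stage and tissue labels nor the transcripts of sacy-1 and mog-5 were checked against the data.

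A spliceosome joins an exon to the first base after an acceptor, which in most introns is preceded by the bases AG, and worm introns carry a short conserved stretch of pyrimidines followed by that AG. SACY-1 is the worm counterpart of the human DEAD-box helicase DDX41, and MOG-5 is related to PRP22, which works at the end of splicing and frees the spliced mRNA. When both acceptors of a pair lie inside a coding region and their distance is no multiple of a codon, the form chosen also sets the reading frame of what follows. Acceptors separated by a single base cannot both end in AG, and acceptors separated by a pair of bases can do so only where AG is repeated.

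Upstream use, in percent, is the share of the form that ends the intron at the acceptor nearer to the 5′ splice site. In every alternative 3′ splice site event of the catalogue the authors' included form had the shorter intron, and both forms had the same 5′ splice site. The pairs lay on all chromosomes, with 39 on chromosome I, 41 on II, 35 on III, 44 on IV, 38 on V and 29 on X, at 213 separate loci. Of the 226 pairs, 37 shared their 5′ splice site with another alternative 3′ event, and 35 of these also shared an acceptor with it, so their percentages are not independent. Introns measured to the upstream acceptor were 35 to 5518 nt long with a median of 52 nt, against 71 nt over all alternative 3′ events. An intron of at most 60 nt was held by 54.9% of the pairs and by 47.5% of all alternative 3′ events. The median was 48 nt for pairs 5 nt apart, 52 nt at both 2 and 4 nt, and 124 nt at 1 nt.

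Between 221 and 226 of the pairs were listed per library, 214 were listed in all 12, and the other 12 in 9 to 11 libraries. The files gave no read totals, so the depth behind each percentage was unknown, and no interval could be set on a single value. Some pairs described below held values that small counts of reads can give. Examples are 25%, 33.33% and 40% in A3.00060, 11.11% and 22.22% in A3.00637, and 25% and 50% in both A3.00545 and A3.01148. Whether few reads lay behind these values was not tested. In each library 42 to 83 pairs stood at exactly 0.1% or exactly 0.1 points below 100%, called the floor and the ceiling here. That number was 63 to 83 in N2_az02, 46 to 62 in sacy-1, 42 to 70 in N2_az04 and 44 to 58 in mog-5, and no pair stood there in every library. N2_az02 therefore had the most such values, and it also had the widest spread, with a mean SD per pair of 4.65 points against 4.27 in sacy-1, 2.36 in N2_az04 and 3.13 in mog-5. The part of either in the comparisons below was not tested.

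In wild-type larvae the pairs 5 nt apart used mostly the downstream acceptor, and the pairs 1, 2 and 4 nt apart mostly the upstream one. Over pairs listed in all 12 libraries, mean upstream use in N2_az02 was 80.9% ± 0.71 (SD, n = 3) at 1 nt, 70.4% ± 1.52 at 2 nt, 75.4% ± 1.72 at 4 nt and 33.7% ± 0.89 at 5 nt. In N2_az04 the means were 81.0% ± 0.61, 70.8% ± 0.58, 78.1% ± 0.53 and 34.3% ± 0.25 in the same order. At 5 nt the mean of every N2 library lay below that of every library at the other distances, while the order of 2 and 4 nt rested on a smaller gap. The medians lay farther apart than the means, at 99.4%, 97.8%, 94.7% and 4.3% in N2_az02. Pairs 6 nt apart had a mean of 24.8% ± 1.27 in N2_az02 and pairs 3 nt apart 71.8% ± 0.35, so the step in level lay between 4 and 5 nt.

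Most pairs sat near one end of the scale. Upstream use was at least 90% in all 12 libraries for 102 of the 214 pairs, namely 34 at 1 nt, 28 at 2 nt, 24 at 4 nt and 16 at 5 nt. It was at most 10% in all 12 for 40 pairs, of which 30 were 5 nt apart. Only 12 pairs stayed between 10% and 90% in all 12 libraries, 3 at 1 nt, 2 at 2 nt, 4 at 4 nt and 3 at 5 nt. The remaining 60 had libraries on both sides of at least 1 of these limits. The steady middle was shown by A3.02413, 5 nt apart on chromosome V, where upstream use was 64.4%, 64.9% and 60.2% in N2_az02 and 59.9%, 62.5% and 62.4% in sacy-1. In N2_az04 it was 66.2%, 69.6% and 64.9%, and in mog-5 74.2%, 75.7% and 69%. All 12 libraries used both acceptors of that pair, and it was named after its values were seen.

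**Figure D1:**
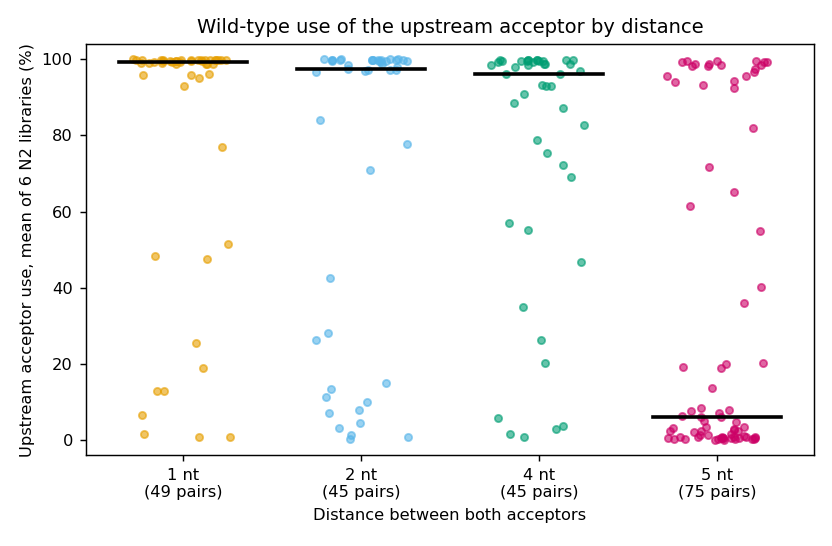
Upstream acceptor use in wild-type larvae (percent, mean of 6 N2 libraries, vertical axis) for each pair listed in all 12 libraries, by the distance between both acceptors (horizontal axis). Points are pairs and bars are medians; at 1, 2 and 4 nt most points lie near the top, and at 5 nt 43 of 75 lie under 10%.

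A minority of pairs varied widely between libraries. In 17 pairs the lowest and the highest of the 12 libraries lay at least 50 points apart, 4 of them at 1 nt, 4 at 2 nt, 5 at 4 nt and 4 at 5 nt. In 12 pairs libraries of the same group lay that far apart, 3 of them at 1 nt, 3 at 2 nt, 4 at 4 nt and 2 at 5 nt. One example, named after its values were seen, is A3.00175 on chromosome I, 4 nt apart, which stood at the ceiling, 66.7% and 0.1% in N2_az02 and at 0.1%, 0.1% and the ceiling in sacy-1. In N2_az04 it stood at 63.6%, 44.4% and 66.7%, and in mog-5 at 60%, 46.2% and 25%. Its groups overlapped in both comparisons. At the other extreme 74 of the 214 pairs had an SD below 1 point in each of the 4 groups.

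In sacy-1(tn1385) larvae few of the pairs changed, and those that did moved to the upstream acceptor. A pair was called changed where limma gave an adjusted p below 0.05, over all library-intron events tested, and the groups differed by 15 percentage points or more. Of 216 pairs tested 4 were called, which is 1.85%, against 9.29% of all 3370 alternative 3′ events tested. Of the 4, 1 was 1 nt apart and 3 were 5 nt apart, out of 50 and 75 tested. The count was 1 without az021 or az023, 2 without az024 and 2 against N2_az04, where none of the 4 was called. The share of all alternative 3′ events called in these fits was not counted. None of 45 pairs at 2 nt and none of 46 at 4 nt was called by limma, on percent values or after an arcsine square root transform. An unadjusted p below 0.05 was held by 3 (2 upstream and 1 downstream) and 7 (all upstream) of them. Over all alternative 3′ events 27.5% had such a p upstream and 1.54% downstream. The other 10 pairs were not listed in all 6 libraries and were not tested.

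The call with the smallest adjusted p was A3.01930, on the minus strand of chromosome IV at 4809343 to 4809686. Its acceptors, 4809494 and 4809489, lie 5 nt apart behind an intron of 45 nt. Upstream use was 14.0%, 15.5% and 9.63% in the N2_az02 libraries and 31.0%, 32.1% and 29.5% in the sacy-1 libraries. All 3 sacy-1 libraries lay above all 3 of N2_az02. The difference was 17.82 points (SE 1.80, limma adjusted p = 0.00626), and the call was kept when any 1 of the 6 libraries was left out. However, the other wild-type set stood at 31.3%, 20.4% and 24.2%, and the difference from it was 5.59 points, which was not called. The mog-5 libraries stood at 26.2%, 36.6% and 22.5%, overlapping N2_az04.

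A3.00296, on the minus strand of chromosome I at 7322453 to 7322895, has acceptors 7322598 and 7322593, also 5 nt apart, behind an intron of 157 nt. In N2_az02 its upstream acceptor took 43.3%, 57.1% and 48.4%, and in sacy-1 77.8%, 70.8% and 75%. The groups did not overlap, and the difference was 24.92 points (SE 4.15, limma adjusted p = 0.028). In N2_az04 it took 55.3%, 60.3% and 64.8%, and in mog-5 70.2%, 78.3% and 72%. The mog-5 libraries also lay above all 3 of their N2 set, by 13.38 points (SE 3.42, limma adjusted p = 0.169), which was not called. The sacy-1 call was lost without az021 (21.77 points), az023 (24.3), az024 (23.3), az025 (26.77) or az026 (24.68), and against N2_az04 (14.42).

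A3.00637, on the plus strand of chromosome II at 2318204 to 2318798, has acceptors 2318648 and 2318653, 5 nt apart, behind an intron of 346 nt. Its upstream acceptor was listed at 0.1% in each N2_az02 library and at 22.2%, 22.2% and 11.1% in sacy-1. N2_az04 stood at 0.1%, 4.76% and 0.1%, and mog-5 at 0.1%, 4.76% and 11.8%. Every sacy-1 library but az026 thus lay above the other 9 libraries. The difference from N2_az02 was 18.42 points (SE 3.41, limma adjusted p = 0.0378), with an SD of 0 among the N2_az02 libraries. The call was lost without any 1 of az021, az022 and az023 (18.42 points each), without az024 or az025 (16.57 each) and against N2_az04 (16.86).

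The called pair 1 nt apart was A3.00060, on the plus strand of chromosome I at 2632041 to 2632274, with acceptors 2632149 and 2632150 behind an intron of 43 nt. The acceptor nearer to the 5′ splice site was listed at 0.1% in all 3 N2_az02 libraries and at 40%, 25% and 33.3% in sacy-1, a difference of 32.68 points (SE 3.99, limma adjusted p = 0.011). The other N2 set did not share that low level, standing at 33.3%, 0.1% and 42.9%, and mog-5 stood at 0.1%, 22.2% and 22.2%. Against N2_az04 the difference was 7.35 points and was not called. The call was also lost without az021, az023 (32.68 points each) or az026 (32.4), against all 6 N2 libraries (20.01) and in 1 fit of all 12 libraries (32.68).

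Below the minimum difference, 3 further pairs passed the adjusted p alone, so 7 of 216 did, against 14.5% of all alternative 3′ events. All 3 were 5 nt apart and rose from a wild-type level near 0. A3.03219, on the minus strand of chromosome X with acceptors 8190269 and 8190264, went from 0.93%, 1.5% and 0.1% in N2_az02 to 10.7%, 6.2% and 11.1% in sacy-1, by 8.50 points (SE 1.53, limma adjusted p = 0.0354). A3.00854, on the minus strand of chromosome II with acceptors 7875009 and 7875004, went from 1.96%, 3.45% and 2.78% to 8.77%, 8.43% and 6.25%, by 5.09 points (SE 0.90, limma adjusted p = 0.0337). A3.01897, on the plus strand of chromosome IV and named after its values were seen, rose by 4.90 points (SE 0.86, limma adjusted p = 0.0323) to a mean of 5.92%. None of the 3 groups of sacy-1 values overlapped its N2_az02 values.

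The other pairs that the naming rule took in sacy-1 were not called in the comparison of 6 libraries. At 2 nt the smallest unadjusted p belonged to A3.01148, on the minus strand of chromosome II with acceptors 14635904 and 14635902, which shares an acceptor with other alternative 3′ events. It stood at 0.1%, 25% and 25% in N2_az02 and at 50%, 66.7% and 50% in sacy-1 (38.86 points, SE 9.16, limma adjusted p = 0.0739), and it was called in 1 fit of all 12 libraries (limma adjusted p = 0.0154). At 4 nt it belonged to A3.00124, on the minus strand of chromosome I with acceptors 4581241 and 4581237, at 98.5%, 98.3% and 97.2% in N2_az02 and at the ceiling in each sacy-1 library (1.89 points, SE 0.52, limma adjusted p = 0.108). In both pairs the groups did not overlap. The largest difference of any tested pair was also not called there: A3.00545, on the plus strand of chromosome I with acceptors 13411812 and 13411817, 5 nt apart, stood at 0.1%, 33.3% and 0.1% in N2_az02 and at the ceiling, 60% and the ceiling in sacy-1 (75.42 points, SE 15.86, limma adjusted p = 0.0556). This pair was called with a variance trend (limma adjusted p = 0.0462), without az025 (88.72 points, 0.0438), in 1 fit of all 12 libraries (0.00493) and against all 6 N2 libraries (67.58 points, 0.0078). The N2_az04 libraries stood at 33.3%, 20% and 27.3% at the pair, and the mog-5 libraries at 20%, 25% and 50%.

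**Figure D2:**
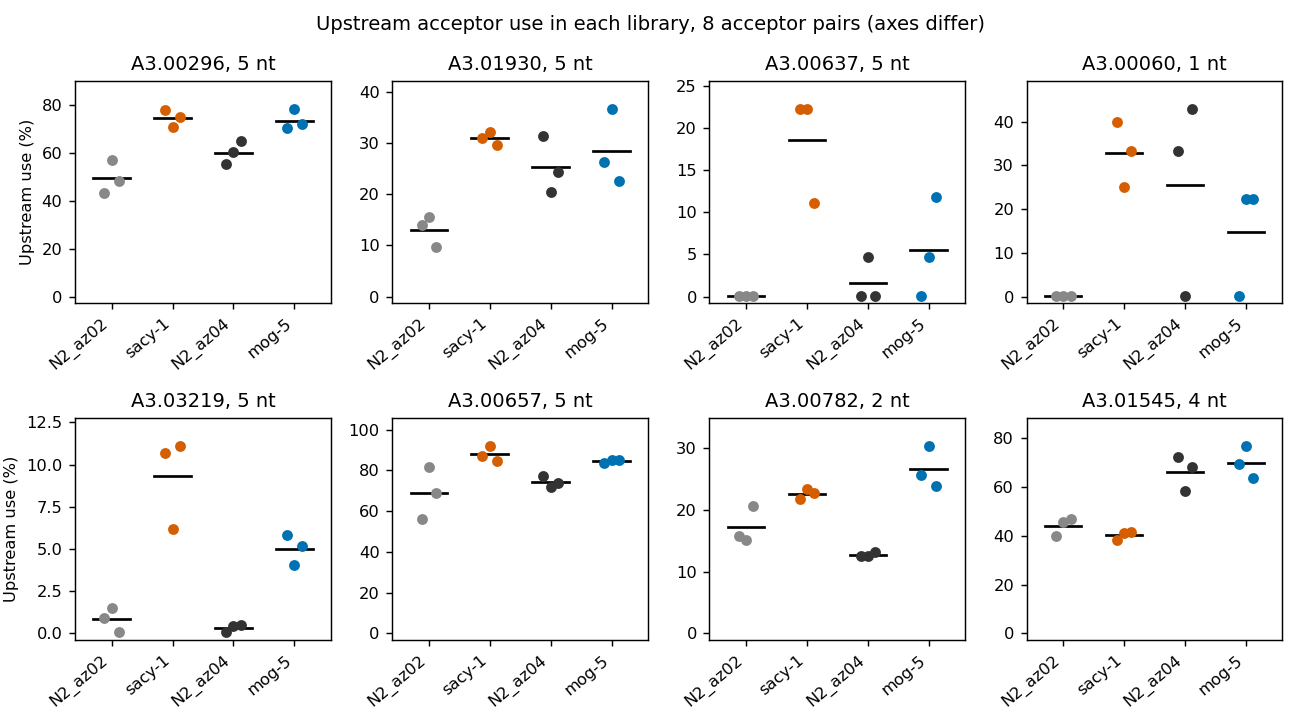
Upstream use (percent, vertical axis, which differs between panels and starts at 0) in each library of the 4 groups (horizontal axis) for 8 pairs; points are libraries and bars are means of 3. In the top row the sacy-1 libraries lie above N2_az02 in all 4 called pairs, and in the last panel (A3.01545) each mutant lies near its own N2 set.

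Within this set, called or not, pairs wholly higher in sacy-1 were mostly 5 nt apart, at a share below that of all alternative 3′ events. In sacy-1 37 of 216 pairs, or 17.1%, had every sacy-1 library above every N2_az02 library, against 35.0% of all alternative 3′ events. In 8 pairs, or 3.7%, every sacy-1 library lay below, against 2.31%. Of the 37, 23 were 5 nt apart, which is 30.7% of the 75 tested there, while 3, 4 and 7 were 1, 2 and 4 nt apart. That share was 40.1% for pairs 6 nt apart and 32.8% for pairs 7 or 8 nt apart. Of the 8 in the downstream direction 1 was 5 nt apart and 3, 2 and 2 were 1, 2 and 4 nt apart. At an unadjusted p below 0.05 lay 24 of the 216 pairs upstream, against 27.5% of all alternative 3′ events, and 1 downstream, against 1.54%. All of the 14 pairs 5 nt apart among these 25 leaned upstream, as did most alternative 3′ events at that p (927 upstream and 52 downstream).

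Mean upstream use over the 75 pairs 5 nt apart was 33.4%, 34.7% and 33.0% in the N2_az02 libraries and 37.0%, 38.7% and 39.2% in the sacy-1 libraries. Every sacy-1 library lay above every N2_az02 library. The difference in means was 4.59 points, against 5.95 points over all alternative 3′ events, 2.63 points for pairs 3 nt apart and 6.97 points for pairs 6 nt apart. Without the 4 pairs that spanned at least 50 points between libraries it was 2.69 points, so part of it rested on them. At 1, 2 and 4 nt the differences were -0.22, 0.45 and 0.83 points, and the libraries of both groups overlapped at each. The median difference of single pairs was 1.20 points at 5 nt, 0.14 points over all 216 and 1.94 points over all alternative 3′ events.

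At 5 nt the sacy-1 mean was higher at each wild-type level, least evenly in the middle of the scale. Classes were set by the mean of the 6 N2 libraries, which include the controls of both mutants. They are thus not independent of either comparison, and pairs near the floor have little room to fall. Mean upstream use was 2.09% ± 1.12 (SD, n = 3) in N2_az02 and 4.92% ± 0.27 in sacy-1 over the 43 pairs with an N2 mean under 10%. It was 41.47% ± 3.26 and 57.92% ± 6.51 over the 12 pairs between 10% and 90%, and 96.99% ± 0.35 and 98.25% ± 0.27 over the 20 pairs above 90%. In each of the 3 classes all sacy-1 libraries lay above all N2_az02 libraries. In the middle class 7 of the 12 pairs were higher and 3 lower in sacy-1. Without its 3 pairs that spanned at least 50 points, the middle class had means of 44.78% ± 5.57 and 53.42% ± 4.53, a difference of 8.64 points, and the libraries overlapped. Without the 1 such pair of the lowest class its means were 1.75% ± 0.54 and 3.85% ± 0.35, without overlap. Of the 75 pairs 57 had a higher and 16 a lower mean in sacy-1, so 76.0% were higher, against 78.5% of all alternative 3′ events. Over all 216 pairs 57.9% were higher.

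**Figure D3:**
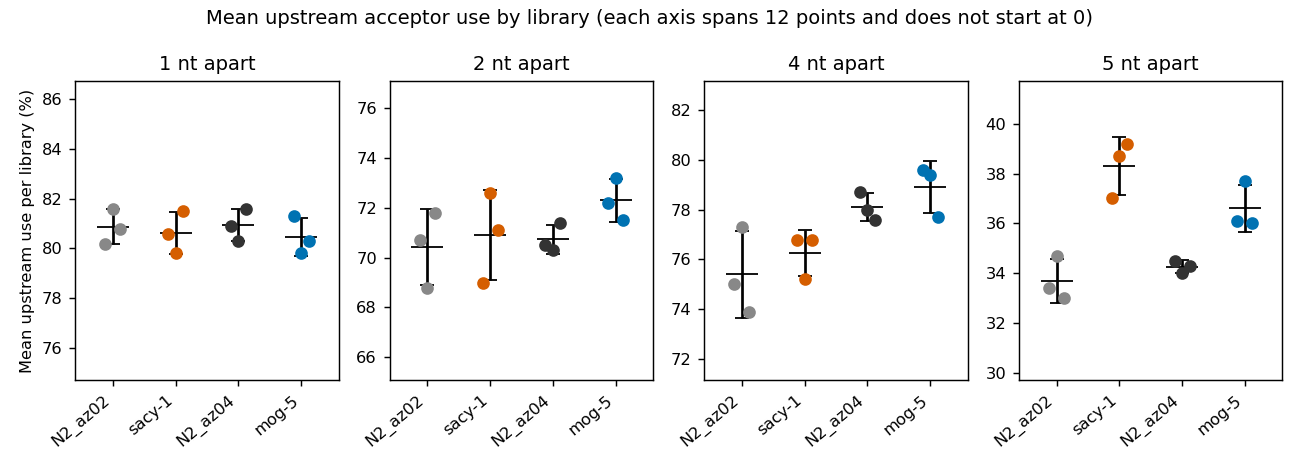
Mean upstream use per library (percent, vertical axis; each axis spans 12 points and does not start at 0) over the pairs listed in all 12 libraries, by group (horizontal axis) and distance between acceptors (panels). Points are libraries, bars are the mean ± SD of 3; at 5 nt both mutants lie above their own N2 set, and at 1 nt all groups overlap.

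In mog-5(az192) larvae none of 222 pairs tested was called, against 1.92% of all 3433 alternative 3′ events tested with limma. The arcsine square root transform and a variance trend also called none, and 15 pairs had an unadjusted p below 0.05. Of those 14 leaned upstream, against 18.7% of all alternative 3′ events, and 1 downstream, against 0.932%. The 9 pairs 5 nt apart among them all leaned upstream, as did most alternative 3′ events at that p (643 upstream and 32 downstream). Without az041 the count was 2, with 1 upstream and 1 downstream, and the share of all alternative 3′ events called in that fit was not counted. The other 4 pairs were not listed in all 6 libraries.

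Without the minimum difference 4 pairs passed, against 3.9% of all alternative 3′ events, and all 4 were higher in mog-5. A3.00782, on the minus strand of chromosome II with acceptors 6854997 and 6854995, 2 nt apart behind an intron of 212 nt, had the largest of these differences. Its upstream acceptor took 12.5%, 12.6% and 13.1% in N2_az04 and 25.7%, 30.4% and 23.8% in mog-5 (13.89 points, SE 1.83, limma adjusted p = 0.0425). In N2_az02 it took 15.8%, 15.1% and 20.7%, and in sacy-1 21.7%, 23.3% and 22.7%, a difference of 5.41 points (limma adjusted p = 0.153). Both mutants thus lay wholly above their own N2 set at this pair, and it was the only pair 2 nt apart that did so in both.

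A3.00657, on the minus strand of chromosome II at 3306361 to 3306787, 5 nt apart and named after its values were seen, stood at 77.1%, 72% and 73.9% in N2_az04 and at 83.7%, 85.1% and 85.2% in mog-5 (10.32 points, SE 1.47, limma adjusted p = 0.0457). Its sacy-1 libraries stood at 87.0%, 92% and 84.4% and its N2_az02 libraries at 56.2%, 81.6% and 69%, with an SD of 12.67 points in N2_az02 and a limma adjusted p of 0.216. A3.03219, the pair on chromosome X described above, was at 0.1%, 0.43% and 0.47% in N2_az04 and at 5.85%, 4.07% and 5.16% in mog-5 (4.69 points, SE 0.53, limma adjusted p = 0.0314). It was the only pair that passed the adjusted p in both mutants, at 8.50 and 4.69 points, under the minimum in each. The fourth, A3.02213 on chromosome IV, also 5 nt apart and named after its values were seen, went from a mean of 95.06% ± 0.26 (SD, n = 3) to 97.14% ± 0.08 (limma adjusted p = 0.0359). Its N2_az02 libraries spread more widely, at 84.78%, 85.45% and the ceiling, with an SD of 8.54 points. The sacy-1 libraries of this pair stood at 90%, 90.77% and 96.15%.

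The smallest unadjusted p in mog-5 at 4 nt belonged to A3.00982, on the plus strand of chromosome II with acceptors 10927069 and 10927073. It stood at 94.3%, 95.5% and 93.1% in N2_az04 and at 98.3%, 97.6% and 97.0% in mog-5 (3.32 points, SE 0.76, limma adjusted p = 0.138). Its sacy-1 libraries, at 98.5%, 98.2% and 95.4%, also lay above those of N2_az02, at 89.3%, 92.2% and 94.4%. At 1 nt it belonged to A3.00517, on the plus strand of chromosome I, at the ceiling, 80% and 50% in N2_az04 and 20%, 66.7% and 28.6% in mog-5 (-38.22 points, SE 18.89, limma adjusted p = 0.461). Those groups overlapped, so even the best-ranked pair 1 nt apart was within the spread of its libraries.

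Every mog-5 library lay above every N2_az04 library in 22 pairs, which is 9.91% of the 222, against 24.8% of all alternative 3′ events. All mog-5 libraries lay below in 2 pairs, or 0.901%, against 1.49%. Of the 22, 14 were 5 nt apart (18.2% of 77), 5 were 2 nt apart, 3 were 4 nt apart and none was 1 nt apart. Mean upstream use at 5 nt was 34.5%, 34.0% and 34.3% in the N2_az04 libraries and 36.1%, 37.7% and 36% in the mog-5 libraries, without overlap. The difference was 2.29 points, against 3.11 points over all alternative 3′ events, and 1.80 points without the 4 widely spread pairs. At 2 nt the libraries also did not overlap, with 72.2%, 73.2% and 71.5% in mog-5 and 70.5%, 70.3% and 71.4% in N2_az04, but the difference of 1.54 points was 0.68 points without the 4 pairs there that spanned at least 50 points. At 1 and 4 nt the differences were -0.50 and 0.79 points, and the libraries overlapped.

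In single pairs 5 nt apart the mog-5 mean was higher in 69 of 77 and lower in 8, so 89.6% were higher, against 75.6% of all alternative 3′ events. That share was 66.4% at 3 nt, 79.7% at 6 nt, 79.0% at 7 or 8 nt and 85.6% at 9 nt. Many pairs 5 nt apart lay near the floor and had little room to fall. The median difference at 5 nt was 1.24 points, against 1.02 points over all alternative 3′ events. Over the 43 pairs with an N2 mean under 10% the mean was 2.56% ± 0.15 (SD, n = 3) in N2_az04 and 4.60% ± 1.42 in mog-5. It was 42.37% ± 1.77 and 47.73% ± 1.24 over the 12 pairs in the middle, and 97.71% ± 0.26 and 98.70% ± 0.15 over the 20 pairs above 90%. In all 3 classes the libraries of both groups did not overlap. In the middle class without its 3 widely spread pairs the means were 50.81% ± 2.74 and 55.53% ± 3.87, and the libraries overlapped.

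Both mutants were set side by side over the 214 pairs tested in each, and the comparisons share no control libraries. Of these 94 were higher than their own N2 set in both mutants, 32 lower in both, and 88 opposite or without a difference in one. At 5 nt 54 of 75 pairs were higher in both, which is 72%, against 64.1% of all alternative 3′ events, and 3 were lower in both, which is 4.0%, against 8.49%. As a description of pairs that share libraries, both differences had a Pearson r of 0.49 and a Spearman rho of 0.35 over the 75 pairs at 5 nt. The r was 0.48 and the rho 0.19 over the 45 pairs at 4 nt, -0.49 and 0.1 over the 45 at 2 nt, -0.05 and -0.13 over the 49 at 1 nt, and 0.14 and 0.24 over all 214. At 1 nt 12 of 49 pairs were higher and 7 lower in both.

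In 9 of 214 pairs, or 4.21%, every library of each mutant lay above every library of its own N2 set, against 15.4% of all 3345 alternative 3′ events tested in both. In none of the pairs did every library lie below in both, against 0.179%. Of the 9, 6 were 5 nt apart, which is 8.0% of the 75 there, 2 were 4 nt apart and 1 was 2 nt apart. They were A3.00296, A3.00657, A3.00782, A3.00982, A3.01897 and A3.03219, described above, with A3.01256, A3.01281 and A3.01650, named after their values were seen. A3.01650, on the plus strand of chromosome III with acceptors 9623741 and 9623746, 5 nt apart, stood at 2.2%, 3.3% and 3.83% in N2_az02, 7.46%, 9.98% and 6.78% in sacy-1, 3.88%, 4.11% and 3.89% in N2_az04 and 4.9%, 7.58% and 7.7% in mog-5. The wild-type levels of these 9 ranged from near 0 to near 100%, and a link between the pattern and the starting level was not tested.

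**Figure D4:**
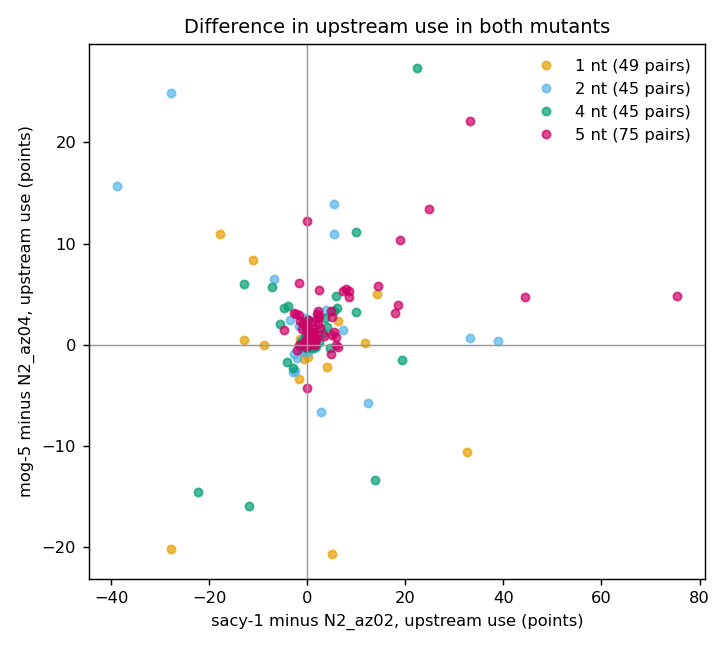
Difference in upstream use of each pair in sacy-1 against N2_az02 (percentage points, horizontal axis) and in mog-5 against N2_az04 (vertical axis), coloured by the distance between acceptors. Of the pairs 5 nt apart 54 of 75 lie to the upper right of the centre lines, against 12 of 49 at 1 nt, 11 of 45 at 2 nt and 17 of 45 at 4 nt. Most pairs at every distance lie close to the centre.

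Whether the effects of both mutants differed at a pair was tested with the interaction term of 1 limma fit of 12 libraries. None of 214 pairs was called, on percent values or after the arcsine square root transform, against 2.18% of all 3345 alternative 3′ events tested, and 18 had an unadjusted p below 0.05, against 15.8%. The smallest unadjusted p was that of A3.00545, described above, whose sacy-1 effect exceeded its mog-5 effect by 70.62 points (SE 19.12, limma adjusted p = 0.114). A3.00854 followed with 4.13 points (SE 1.14, limma adjusted p = 0.122). The third was A3.01405, on the minus strand of chromosome III with acceptors 5554358 and 5554353, 5 nt apart, where the mog-5 effect was the larger one (-3.03 points, SE 0.89, limma adjusted p = 0.149). There upstream use was 3.12%, 4.17% and 2.76% in mog-5 and between 0.1% and 2.14% in the other 9 libraries. A3.00782, on chromosome II, had an interaction of -8.48 points (limma adjusted p = 0.164), so its larger mog-5 effect did not pass either.

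Between the wild-type sets none of 218 pairs tested was called by limma, with or without the arcsine square root transform or a variance trend, against 0.0295% of all 3385 alternative 3′ events. At an unadjusted p below 0.05 lay 12 pairs with more upstream use in N2_az04 and 4 with less, against 16.0% of all alternative 3′ events in either direction. Every N2_az04 library lay above every N2_az02 library in 19 pairs (8.72%), against 17.9% of all alternative 3′ events, and below in 6 (2.75%), against 2.95%. At 5 nt that count was 11 up and 3 down, beside 23 and 1 for sacy-1 and 14 and 0 for mog-5, comparisons that share these N2 libraries. The mean over pairs 5 nt apart was 0.60 points higher in N2_az04, a smaller step than in either mutant, but at 4 nt it was 2.71 points higher, a larger step than in either mutant.

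One pair 4 nt apart, named after its values were seen, showed that step in single libraries. A3.01545, on the minus strand of chromosome III at 7927930 to 7928224 with acceptors 7928023 and 7928019, stood at 40%, 45.6% and 46.9% in N2_az02 and at 38.5%, 41.0% and 41.4% in sacy-1. In N2_az04 it stood at 72.2%, 58.3% and 68.3%, and in mog-5 at 69.6%, 76.9% and 63.6%. Each mutant overlapped its own N2 set and lay apart from the other N2 set. The difference between the wild-type sets was 22.08 points (SE 4.32, limma adjusted p = 0.231), which was not called, while sacy-1 against N2_az04 (-25.97 points) and mog-5 against N2_az02 (25.87 points) both were.

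Pairs 5 nt apart were called in sacy-1 at 4.0%, between the 0.866% of pairs 3 nt apart (2 of 231) and the 10.1% of pairs 6 nt apart (79 of 780). Pairs 7 or 8 nt apart were called at 4.84% (23 of 475) and pairs 9 nt apart at 23.3% (131 of 562). In mog-5 none of 235 pairs 3 nt apart was called by limma, 23 of 788 were at 6 nt (2.92%) and 2 of 480 at 7 or 8 nt (0.417%). A pair near 100% in wild type has no room to rise by 15 points, and many of the pairs described here were near 100%. Among the 103 pairs with an N2_az02 mean of at most 85%, 4 were called in sacy-1, which is 3.88%, against 2.27% of such pairs 3 nt apart, 11.3% at 6 nt, 5.49% at 7 or 8 nt and 11.6% of all 2676 alternative 3′ events with that room. None of 106 such pairs was called in mog-5, against 2.42% of 2725. With that room in N2_az02, 3 of 55 pairs 5 nt apart were called in sacy-1, which is 5.45%. At 1 nt 1 of 13 such pairs was called, which is 7.69%, and none of 17 was at 2 nt and none of 18 at 4 nt. The part of room to rise in the share called was not tested.

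**Figure D5:**
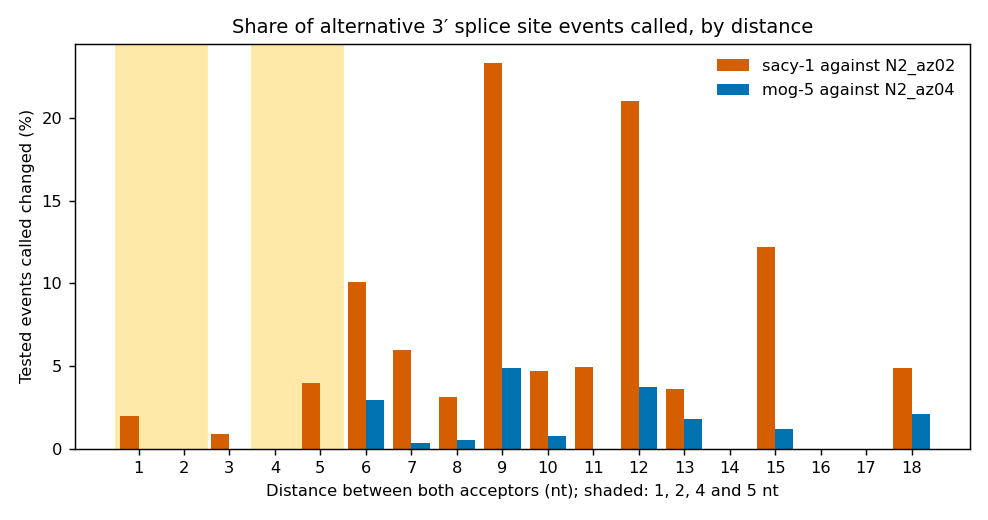
Share of tested alternative 3′ splice site events called changed (percent, vertical axis) by the distance between acceptors from 1 to 18 nt (horizontal axis), for sacy-1 against N2_az02 and mog-5 against N2_az04. Shading marks 1, 2, 4 and 5 nt, where sacy-1 bars stand at 2.0% for 1 nt and 4.0% for 5 nt and no mog-5 bar is seen, while 9 nt reaches 23.3% in sacy-1.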

How the data were processed

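The authors deposited, per library, lists of splicing events on build ce10, with a per mille score for the included and the excluded form of each event, as the file headers show. Bowtie2, STAR and SAMtools stand in the submitters' processing notes, and the sources used here do not say how the scores were counted. Percent upstream use is the included score divided by the total of the included and excluded scores, and that total was 1000 in every library-intron event. The Ensembl catalogue was not used here. Events listed in all 6 libraries of a comparison went into a limma fit (version 3.58.1, R 4.3.3) that had no covariates, and p-values were adjusted by Benjamini-Hochberg over all library-intron events. A pair with an SD of 0 takes its spread from the other events. The plan allowed for read counts, which were not in these files.

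The pairs, lists and tests were chosen with earlier results of these data known. The naming rule took, per mutant, up to 12 called pairs with the largest difference, those called in both, the smallest unadjusted p at each distance, up to 6 called downstream, up to 4 called between N2 sets, and the 3 smallest interaction p-values. Acceptor positions are the first exonic base, 1-based. No ce10 genome was used here, so no sequences or gene names are given. Alternatives changed the scale, variance trend, minimum difference, events and libraries in the fit and the N2 set.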

Additional observations from a re-analysis of the deposited data

How the results depend on the processing

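The 4 pairs called in sacy-1 against N2_az02 were 4 also on the arcsine square root scale, and 5 with a variance trend. With no minimum difference they were 7, beside 14.5% of all alternative 3′ events. They were 3 against all 6 N2 libraries and 6 in 1 fit of all 12 libraries. For the other alternatives, here and in the counts below, the share of all alternative 3′ events called was not counted. A change in these counts may therefore not be particular to the pairs. Leaving out 1 library gave 1 to 5. The count was 1 without az021 or az023, 2 without az024, 3 without az022 or az026 and 5 without az025, with 1 downstream call in each of the last 2 fits (A3.03340 without az026 and A3.02079 without az025). Against N2_az04 it was 2, A3.00494 upstream and A3.01545 downstream, and none of the 4 was among them. A3.01930 was the only 1 of the 4 called with each of the 6 libraries left out.

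In mog-5 the count of 0 became 4 without a minimum difference, 2 with a minimum of 10 points, 1 against N2_az02 (A3.01545) and 0 to 2 with 1 library left out. Without az041 it was 2, A3.00937 at 33.23 points, which is not listed in az041, and A3.01849 at -95.07 points. Between the wild-type sets it was 0 to 1, and 1 without az022 (A3.01111). The interaction stayed at 0 in the alternatives run.

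Chosen after seeing the data were means, by distance and by wild-type class, without pairs that span at least 50 points, and means by distance against the other N2 set. Without those pairs the mean difference fell to 2.69 points at 5 nt in sacy-1 and to 0.68 points at 2 nt in mog-5, where the median over pairs gave 0.17. Against the other N2 set the differences at 4 nt were -1.88 points in sacy-1 and 3.5 points in mog-5. The causes were not tested. For the 4 called pairs, 40 of the alternative fits kept the call and 20 lost it. For the 9 named results without a call, 90 alternatives left them uncalled and 4 gained a call. The gains were A3.00782 and A3.03219 with a relaxed minimum difference and A3.01148 in 1 fit of all 12 libraries. A relaxed minimum cannot lose a call. No alternative turned a direction, but only fits that left out a library or changed the N2 set could do so. The others leave the difference itself unchanged. No paired analysis was possible because no group shares library numbers with another. Depth was unknown, so how far it limits each value could not be checked.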
